A study of Mus musculus with 26 samples.

Results

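Collagens are triple-helical proteins of the extracellular matrix, each built from 3 chains, of 1 or several genes. The mouse genes whose symbol has the form Col, a type number, a and a chain number were followed here: 44 protein-coding genes among the 48709 gene identifiers of the RNA tables. Fibrillar collagens form rope-like fibrils, fibril-associated collagens sit on them, and type IV collagens form the mesh of basement membranes. In the cochlea, types II, IX and XI build the fibrils of the tectorial membrane, the gel that lies over the hair cells, and the type IV chains line the basement membranes under the sensory epithelium. The 44 genes comprised 11 fibrillar, 9 fibril-associated, 6 basement membrane network, 6 beaded filament (type VI), 3 short-chain network, 4 transmembrane and 2 multiplexin genes, 1 anchoring fibril gene and 2 others.

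The study cultured cochleae of mice at postnatal day 1 with DAPT, a gamma-secretase inhibitor that blocks Notch signalling, or with the solvent DMSO, and sorted cells by fluorescence after dissociation. At 24 h, cells with the Lfng-GFP reporter, which marks supporting cells, were collected from DMSO (n = 3) and DAPT cultures (n = 3). At 48 h, supporting cells were marked with Lfng-CreER/TdT, an Lfng-driven inducible Cre that switches on the red reporter TdT, and Atoh1-GFP, a reporter of the gene of Atoh1, the transcription factor that starts hair cell formation, separated DAPT-treated cells into permissive cells that carried both colours (n = 3) and nonpermissive cells with TdT alone (n = 3). Control cells at 48 h were TdT cells from DMSO cultures (n = 2). RNA libraries at 24 h came from a poly(A) kit and those at 48 h from a low-input kit, so time, reporter and kit cannot be told apart. ATAC-seq, which marks accessible chromatin, and CUT&RUN for the histone mark H3K27ac were run at 48 h with 2 libraries per group. The labels do not say whether replicates came from separate animals, and p-values then measure the spread between these libraries, which may be technical.

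The RNA libraries held 10666000 to 13158859 estimated counts at 24 h and 2165340 to 4896371 at 48 h, so low genes are measured less precisely at 48 h. The labelled cell types were checked against marker lists without collagens. Summed over 14 supporting cell markers, levels in CPM (counts scaled to a common library total, with edgeR's TMM factors) were 16307 to 17989 in DMSO, 8045 to 9343 in DAPT, 11306 to 16337 in control, 8898 to 13817 in nonpermissive and 1786 to 2218 in permissive libraries. The 10 hair cell markers summed to 1310.3 to 1583 CPM in DMSO, 4154 to 6084 in DAPT, 152 to 279 in control, 281 to 367 in nonpermissive and 5777 to 7607 in permissive libraries. Fewer cells of a type and less RNA per cell cannot be told apart in such bulk samples. The mitochondrial ribosomal RNA gene mt-Rnr2 took 2.54% to 26.2% of all TPM (transcript level per length, scaled to the same total in each library) at 48 h, against 0.416% to 0.507% at 24 h. The 48 h control library 2 stood apart from control 1 in interstitial collagens and mesenchyme markers, and results that rest on it are given with and without it.

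Collagen RNA was dominated by the cartilage and tectorial membrane chains in the supporting cell libraries and was scarce in permissive cells. By TPM, the 44 genes took 0.608% to 0.641% of all transcripts in DMSO libraries, 0.391% to 0.489% in DAPT libraries, 0.268% and 0.528% in the 2 control libraries, 0.156% to 0.388% in nonpermissive and 0.0283% to 0.0874% in permissive libraries. The ratio of the group means of summed TPM was 0.717 for DAPT over DMSO, 0.125 for permissive over control, 0.184 for permissive over nonpermissive and 0.680 for nonpermissive over control. Without control 2 the last ratio was 1.01, and that of permissive over control was 0.186. Without permissive 3 the ratio was 0.0778 for permissive over control and 0.114 for permissive over nonpermissive. The 6 genes of types II, IX and XI made up 90.6% to 91.3% of collagen TPM in DMSO, 90.4% to 92.2% in DAPT, 72.7% to 82.1% in control, 76.8% to 82.98% in nonpermissive and 54.5% to 62.1% in permissive libraries. The chains of types I, III and VI, typical of connective tissue, made up 0.375% to 0.497% in DMSO and 0.166% to 0.704% in DAPT libraries, 1.87% in control 1, 14.9% in control 2, 1.30% to 3.94% in nonpermissive and 4.72%, 5.32% and 19.9% in permissive 1, 2 and 3, of which permissive 3 stands apart. The type IV share was 3.05% to 3.65% in DMSO and 1.59% to 1.75% in DAPT libraries, ranges that do not overlap. At 48 h it was 4.63% in control 1, 1.49% in control 2 and 3.30% to 4.19% in nonpermissive libraries. It was highest, at 6.73% to 10.9%, in permissive libraries, where the collagen total was lowest.

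On the per-length scale, Col2a1, the chain of type II collagen, had the highest mean in every group but the permissive cells. It averaged 2985 ± 16.5 TPM (SD, n = 3) in DMSO and 109 ± 77.6 TPM (SD, n = 3) in permissive cells. Col9a2, a chain of the fibril-associated type IX collagen, was second in 4 groups and first in permissive cells, with 1039 ± 64.9 TPM (SD, n = 3) in DMSO and 117 ± 50.8 TPM (SD, n = 3) in permissive cells, where its level and that of Col2a1 lay within their spread. In DMSO cells (mean ± SD, n = 3) Col11a2 at 580.4 ± 123 and Col9a3 at 547 ± 38.8 TPM came next, and these neighbours did not differ beyond their spread. Col9a1 followed at 347 ± 27.2 TPM, then Col11a1 at 171 ± 10.6, Col18a1 at 117 ± 19.6 and Col4a1 at 115 ± 12.7 TPM, of which Col18a1 and Col4a1 lay within their spread. The fibril chains of connective tissue, Col1a2 and Col3a1, were low in the DMSO cells, at 6.09 ± 4.45 and 14.7 ± 1.04 TPM.

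**Figure D1:**
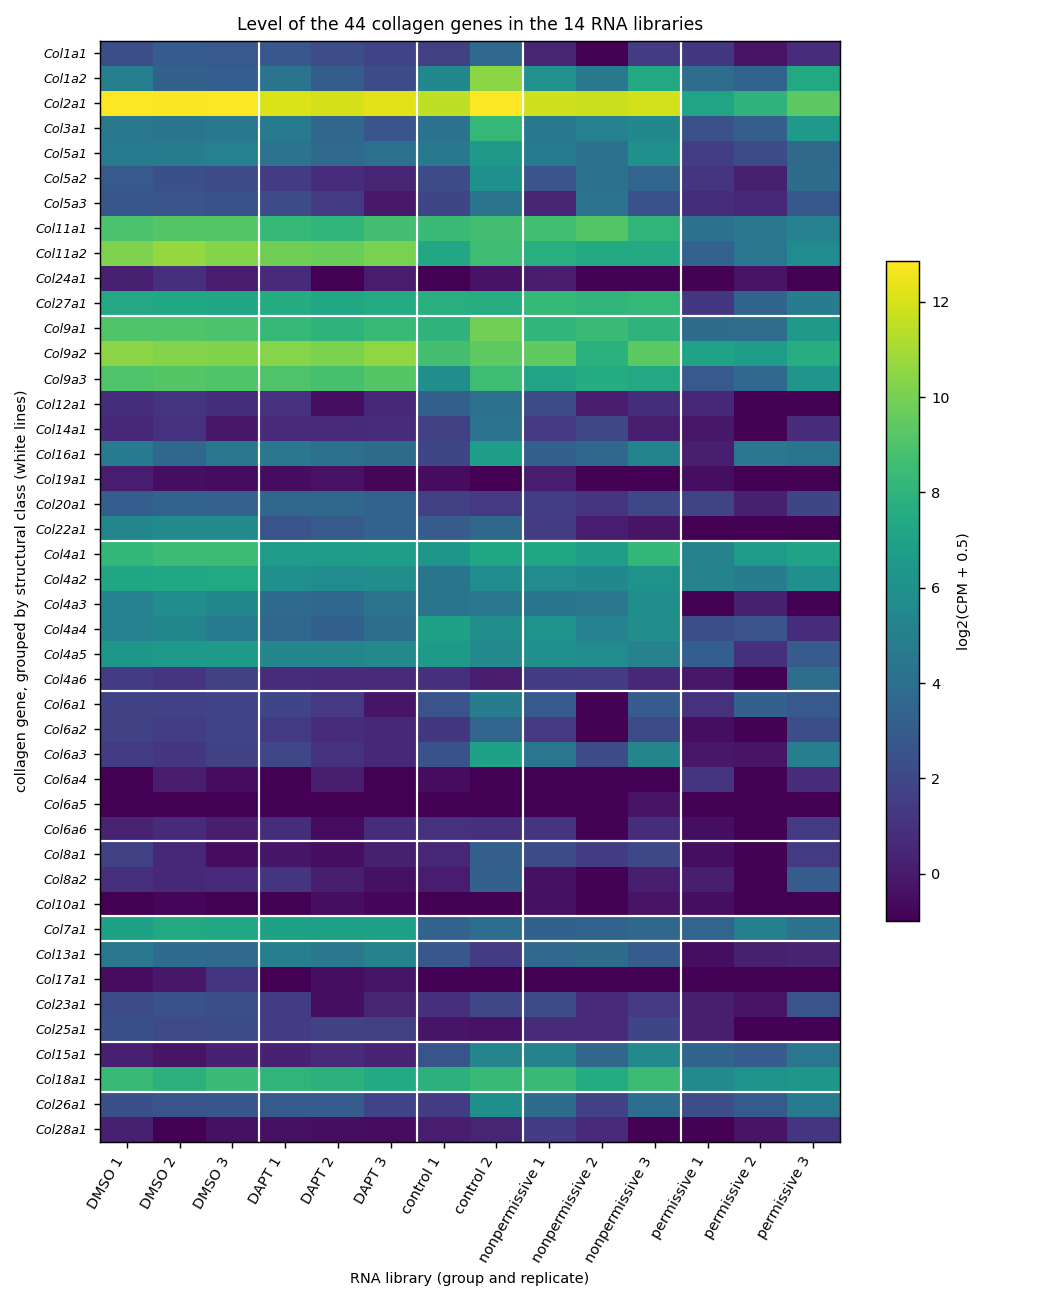
Level of each of the 44 collagen genes (rows, grouped by structural class between white lines) in each of the 14 RNA libraries (columns), as log2(CPM + 0.5) by colour. Levels are to be compared along a row, since CPM is not per length. The rows of types II, IX and XI and of Col27a1 and Col18a1 darken in the 3 permissive libraries, and control 2 is brighter than control 1 in Col1a2, Col3a1, Col6a3 and Col16a1.

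The first comparison asked how 24 h of DAPT altered collagen RNA in Lfng-GFP cells. Collagen genes fell far more often than they rose: 13 of the 35 tested members fell and 1 rose (edgeR quasi-likelihood test, Benjamini-Hochberg adjusted p under 0.05 over all 15174 genes tested). The share of all tested genes that fell was 14.2%, the share that rose 11.5%, and the share called in either direction 25.7%. Libraries of the groups did not overlap for 17 members that were lower and 1 that was higher, beside 21.7% and 20.7% of all tested genes. The members' median log2 fold change was -0.64, beside 0.01 over all genes tested. In the basement membrane network class 5 of 6 tested members fell, in the fibrillar class 5 of 10, in the fibril-associated class 2 of 8 and in the type VI class 0 of 4. In the same libraries 13 of 14 supporting cell markers fell and 9 of 10 hair cell markers rose, and their part in the collagen changes was not tested.

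Among the cartilage chains, 4 fell and a pair of type IX chains did not pass the test. Col2a1 stood at 7279, 6909.9 and 7170.0 CPM in the DMSO libraries and 4441, 4036 and 4748 CPM in the DAPT libraries. The groups did not overlap, and the log2 fold change was -0.69 ± 0.10 (SE), with an edgeR adjusted p of 0.00141. Col9a1 fell from 551, 549 and 483 CPM to 313, 256 and 323 CPM, a log2 fold change of -0.83 ± 0.11 (SE) (edgeR adjusted p = 0.000810). Col9a2 was at 1379, 1257 and 1205 CPM in DMSO and 1286, 1125 and 1503 CPM in DAPT libraries, with a log2 fold change of 0.03 ± 0.12 (SE). Col9a3 was at 519, 582 and 552 CPM and 529, 452 and 596 CPM, with a log2 fold change of -0.07 ± 0.11 (SE). Type IX collagen is a trimer of these 3 chains, and of the 3 the Col9a1 groups alone were free of overlap.

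The type XI chains Col11a1 and Col11a2, which join type II fibrils and set their width, also fell. Col11a1 was at 479.5, 564 and 568 CPM in DMSO and 315, 279 and 414 CPM in DAPT libraries (log2 fold change -0.68 ± 0.15 (SE), edgeR adjusted p = 0.0106). Leaving out DAPT 1 moved that adjusted p to 0.0511. Col11a2 was at 1151, 1617 and 1236 CPM and 940.1, 848 and 1079 CPM (log2 fold change -0.48 ± 0.15 (SE), edgeR adjusted p = 0.0429). Its call ended without DMSO 2, DMSO 3, DAPT 1 or DAPT 2, with an adjusted p up to 0.140. Every DAPT library was below every DMSO library for both genes. The 6 cartilage cell markers summed to 44.3 to 115 CPM in DMSO and 148 to 239.7 CPM in DAPT libraries, a sum made mostly of Cnmd and Matn1. Of that list Matn3 and Snorc had no counts in any library, and Acan, the cartilage proteoglycan, was at 0.283 CPM or below at 24 h.

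**Figure D2:**
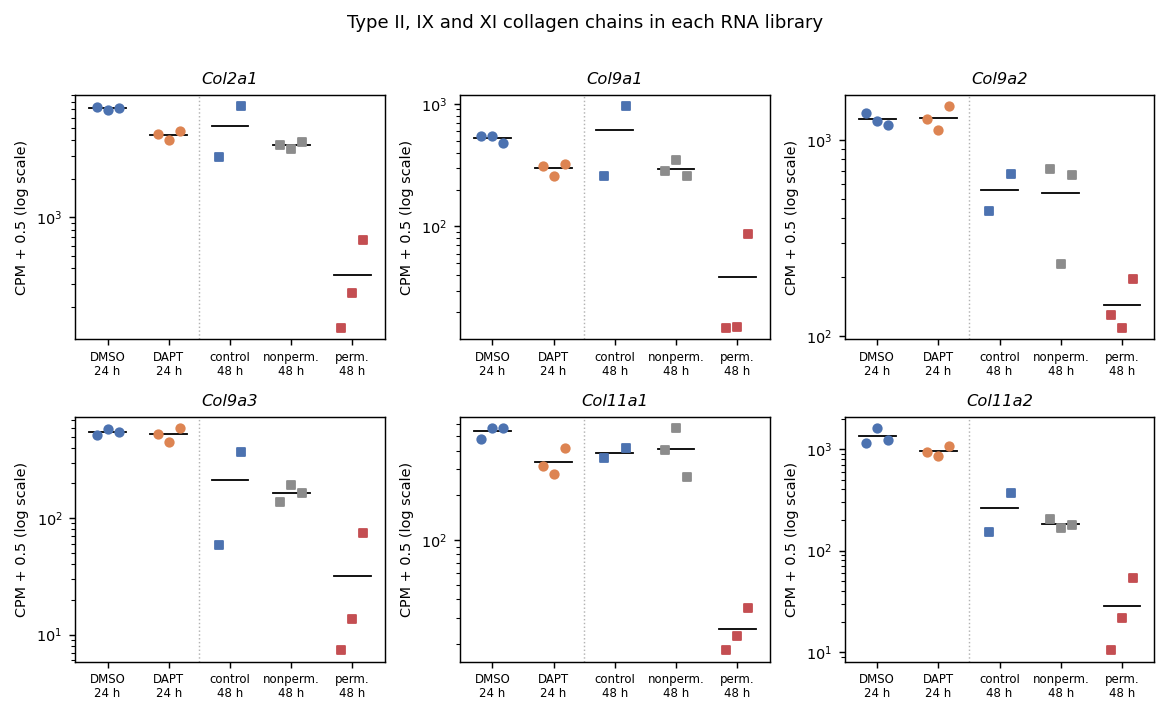
CPM + 0.5 on a log scale for the 6 genes of types II, IX and XI, with a point for each library and a bar at the group mean; circles are 24 h and squares 48 h libraries. The permissive mean is the lowest in all 6 panels, Col9a2 and Col9a3 overlap between DMSO and DAPT at 24 h, and Col9a3 in permissive library 3 lies above control library 1.

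Type IV chains fell together at 24 h. Col4a1 and Col4a2, the chains of the network found under most epithelia and vessels, had the smallest adjusted p of the members. Col4a1 was at 291, 356 and 356 CPM in DMSO and 101, 102 and 110.3 CPM in DAPT libraries, 3.22-fold lower (log2 fold change -1.69 ± 0.10 (SE), edgeR adjusted p = 1.08e-05). Col4a2 was at 143, 160.3 and 172 CPM and 62.1, 53.7 and 56.5 CPM, 2.76-fold lower (log2 fold change -1.46 ± 0.10 (SE), edgeR adjusted p = 1.82e-05). Col4a3, Col4a4 and Col4a5 form the separate network whose loss causes Alport syndrome, a disease of kidney and hearing. Col4a3 fell from 35.4, 55.3 and 40.6 CPM to 13.6, 12.2 and 19.5 CPM (log2 fold change -1.54 ± 0.22 (SE), edgeR adjusted p = 0.00108). Col4a4 fell from 34.3, 39.9 and 26.7 CPM to 12.4, 9.52 and 15.8 CPM (log2 fold change -1.43 ± 0.21 (SE), edgeR adjusted p = 0.00143). Col4a5 fell from 80.7, 85.8 and 90.6 CPM to 42.95, 38.8 and 44.96 CPM (log2 fold change -1.02 ± 0.09 (SE), edgeR adjusted p = 9.43e-05). None of the 5 pairs of groups overlapped, and all 5 calls were kept whichever library was left out. Col4a6 was at 1.66 to 2.85 CPM in DMSO and 1.12 to 1.18 CPM in DAPT libraries and missed the threshold (edgeR adjusted p = 0.0625).

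Vessel cell markers were followed beside these chains. The 6 mural cell markers summed to 165 to 199 CPM in DMSO and 29.5 to 38.8 CPM in DAPT libraries, a sum made mostly of Notch3, a Notch receptor gene. Without Notch3 the other 5 summed to 8.20 to 13.0 and 4.96 to 6.18 CPM, with Acta2, a defining gene, at 0 in 2 DMSO and 2 DAPT libraries. Pdgfrb, a receptor gene of pericytes that stands in the mesenchyme list, was at 102 to 158 CPM in DMSO and 5.52 to 8.43 CPM in DAPT libraries (edgeR adjusted p = 4.01e-06). In that list 3 of 8 tested genes fell and 2 rose. Its sums overlapped, at 515 to 540 CPM in DMSO and 481 to 562 CPM in DAPT libraries. Of the mural list 3 of 5 tested genes fell and 1 rose. The 10 endothelial markers summed to 30.6 to 36.0 CPM in DMSO and 23.0 to 25.4 CPM in DAPT libraries. Of the 10 endothelial genes only 2 were tested, and 0 were called. The part of vessel cells in the type IV result was not tested.

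Other collagens that fell at 24 h belong to the minor fibrillar, fibril-associated and transmembrane classes. Col22a1, a fibril-associated collagen of tissue junctions, fell most, from 40.6, 49.9 and 45.98 CPM in DMSO to 5.36, 7.03 and 9.65 CPM in DAPT libraries. This was 6.20-fold (log2 fold change -2.63 ± 0.20 (SE), edgeR adjusted p = 3.51e-05), and no library overlapped. Col5a1 and Col5a2, chains of the type V collagen that regulates type I fibrils, were at 26.9, 27.8 and 33.4 CPM and 6.79, 4.72 and 4.19 CPM in DMSO libraries. In DAPT libraries they were at 18.6, 12.6 and 15.9 CPM and 2.18, 1.21 and 0.843 CPM. Their log2 fold changes were -0.90 ± 0.17 (SE) and -1.88 ± 0.38 (SE) (edgeR adjusted p = 0.00435 and 0.00671). Col23a1, a transmembrane collagen, was low throughout, at 3.77, 5.14 and 4.46 CPM and 2.27, 0.227 and 0.843 CPM. Its log2 fold change of -2.03 ± 0.58 (SE) (edgeR adjusted p = 0.0330) was not called without any of the DMSO libraries in turn or without DAPT 3, with an adjusted p up to 0.0985, and the value without DAPT 1 was -3.09.

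Col13a1, a transmembrane collagen, was the member that rose at 24 h. It was at 22.6, 14.005 and 12.9 CPM in DMSO and 30.9, 22.5 and 35.7 CPM in DAPT libraries, so DMSO 1 was just above DAPT 2 and the groups overlapped. The log2 fold change was 0.85 ± 0.24 (SE) (edgeR adjusted p = 0.0336), and 4 of the 6 fits that left out a library gave no call, with an adjusted p up to 0.117. Abundant members that did not pass were Col18a1, the type XVIII collagen of basement membranes (log2 fold change -0.41 ± 0.18 (SE)), Col27a1, a fibrillar collagen of cartilage (0.16 ± 0.11 (SE)), and Col7a1, the anchoring fibril chain (-0.31 ± 0.12 (SE)). For these 3 the edgeR adjusted p was 0.129, 0.313 and 0.0960. Col16a1, Col1a2 and Col3a1 did not pass either, with DMSO ranges of 11.7 to 25.8, 8.29 to 30.7 and 20.5 to 23.97 CPM and DAPT ranges of 14.5 to 22.5, 3.93 to 19.8 and 5.71 to 26.4 CPM. Without DMSO 1 Col7a1 was called lower, and without DAPT 1 Col3a1 was.

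At 48 h, permissive cells, the DAPT-treated cells that carried the Atoh1 reporter, were compared with control supporting cells. Many collagens were lower in permissive cells: 14 of 32 tested members were lower and 0 higher (edgeR, adjusted over all 13411 genes tested), where 7.28% of all tested genes were lower, 5.72% higher and 13% called in either direction. Libraries did not overlap for 14 members that were lower, beside 20.1% of all tested genes. The members' median log2 fold change was -2.62, beside 0.06 over all genes. Lower members made up 5 of 9 tested fibrillar, 5 of 7 fibril-associated, 3 of 5 basement membrane, 1 of 2 multiplexin and 0 of 3 type VI genes. Without control 2 the count of lower members was 10. In the same comparison 11 of 14 supporting cell markers were lower and all 10 hair cell markers higher, and their part in the result was not tested. Permissive cells were also compared with nonpermissive cells, which share the DAPT treatment: 12 of 32 members were lower and 0 higher, where 6.35% of all tested genes were lower, 6.78% higher and 13.1% called in either direction. Libraries did not overlap for 15 members that were lower, beside 14.7% of all tested genes. Of the 14 and 12 members, 11 were called in both comparisons, which share the permissive libraries.

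The chains of types II and XI were lower in permissive cells in both comparisons. Col2a1 was at 2947 and 7427 CPM in control, 3665, 3416 and 3849.5 CPM in nonpermissive and 136, 258 and 662 CPM in permissive libraries. The permissive libraries were the lowest 3, 14.8-fold below control (log2 fold change -3.88 ± 0.62 (SE), edgeR adjusted p = 0.00109) and 10.4-fold below nonpermissive cells (log2 fold change -3.37 ± 0.58 (SE), edgeR adjusted p = 0.00183). Col11a1 was at 354 and 413 CPM in control, 405, 564 and 264 CPM in nonpermissive and 17.5, 22.1 and 34.4 CPM in permissive libraries. It had the smallest adjusted p of all collagens here, with log2 fold changes of -3.96 ± 0.48 (SE) against control and -4.06 ± 0.46 (SE) against nonpermissive cells (edgeR adjusted p = 0.000202 and 0.000137). Col11a2 was at 153 and 369 CPM, 206, 168 and 177 CPM and 9.90, 21.4 and 53.4 CPM in the same order, with log2 fold changes of -3.22 ± 0.62 (SE) and -2.72 ± 0.58 (SE) (edgeR adjusted p = 0.00352 and 0.00668). These 3 genes kept both calls whichever library was left out. Leaving out a library moved the log2 fold change against control from -4.72 without permissive 3 to -3.15 without control 2 for Col2a1 and from -4.07 without permissive 3 to -2.53 without control 2 for Col11a2. Against nonpermissive cells it moved from -4.21 without permissive 3 to -3.003 without permissive 1 for Col2a1 and from -3.56 without permissive 3 to -2.32 without permissive 1 for Col11a2.

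The type IX chains were also lower, with less certainty for Col9a2 and Col9a3. Col9a1 was at 258 and 964 CPM in control, 283, 348 and 257 CPM in nonpermissive and 14.2, 14.7 and 86.1 CPM in permissive libraries, with log2 fold changes of -4.004 ± 0.76 (SE) and -2.96 ± 0.70 (SE) (edgeR adjusted p = 0.00344 and 0.0126). Against control this value ran from -5.40 without permissive 3 to -2.84 without control 2 and against nonpermissive cells from -4.35 without permissive 3 to -2.57 without permissive 2, with both calls kept. Col9a2 was at 436 and 674 CPM, 712, 233 and 667 CPM and 128, 109 and 196 CPM, with log2 fold changes of -1.94 ± 0.51 (SE) and -1.90 ± 0.47 (SE) (edgeR adjusted p = 0.0210 and 0.0166). Its call against control ended without control 2 (adjusted p = 0.127) or permissive 2, and its call against nonpermissive cells without nonpermissive 1, nonpermissive 3 or permissive 2. Col9a3 was at 58.2 and 369 CPM, 137, 194 and 164 CPM and 6.81, 13.1 and 74.4 CPM, and permissive 3 exceeded control 1. Its log2 fold change against control of -2.78 ± 0.86 (SE) (edgeR adjusted p = 0.0476) was -0.983 without control 2, where the adjusted p was 0.616, and 5 other fits that left out a library ended the call. Without permissive 3 it was -4.43. Against nonpermissive cells Col9a3 had a log2 fold change of -2.41 ± 0.80 (SE) and an edgeR adjusted p of 0.0648, and with the replicate number as a block the adjusted p was 0.00465. It was also called lower without permissive 3 (log2 fold change -4.06, edgeR adjusted p = 0.00332), without control 1 (0.0345), without control 2 (0.0327), without the low-count filter, in a fit of the compared groups alone, and by DESeq2 (adjusted p = 0.00875).

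Within type IV, the Alport chains Col4a3, Col4a4 and Col4a5 were lower in permissive cells at 48 h. Col4a3 was at 20.2 and 22.8 CPM in control and 20.4, 21.7 and 58.2 CPM in nonpermissive libraries and nearly absent in permissive libraries, at 0, 0.669 and 0 CPM, which stands for 2 counts in all. The ratio of control to permissive cells in counts per effective library size was 109 (95% exact counting interval 29.9 to 910.3), and that of nonpermissive to permissive cells 179 (49.0 to 1481), intervals that cover counting error only. Col4a3 passed the edgeR test in both comparisons (adjusted p = 0.000937 and 0.000445). Col4a4 was at 123 and 58.2 CPM in control, 66.5, 34.3 and 56.96 CPM in nonpermissive and 4.54, 5.69 and 1.21 CPM in permissive libraries, with log2 fold changes of -4.53 ± 0.64 (SE) and -3.75 ± 0.61 (SE) (edgeR adjusted p = 0.000518 and 0.00119). Col4a5 was at 92.6 and 45.6 CPM, 62.5, 52.5 and 34.6 CPM and 8.25, 1.34 and 7.28 CPM, with log2 fold changes of -3.60 ± 0.67 (SE) and -3.13 ± 0.63 (SE) (edgeR adjusted p = 0.00286 and 0.00472). Leaving out control 1 moved the values against control to -3.89 for Col4a4 and -2.99 for Col4a5. Permissive libraries were below all others for these 3 chains, and the 6 calls were kept in each fit that left out a library.

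Col4a1 and Col4a2 passed no test at 48 h. Col4a1 was at 80.4 and 146 CPM in control, 145, 107 and 289.9 CPM in nonpermissive and 35.9, 99.7 and 126 CPM in permissive libraries, and the groups overlapped. Its log2 fold change was -0.38 ± 0.57 (SE) against control and -1.05 ± 0.52 (SE) against nonpermissive cells (edgeR adjusted p = 0.750 and 0.226). Col4a2 was at 20.8 and 52.5 CPM, 51.4, 43.4 and 68.2 CPM and 36.5, 28.8 and 61.1 CPM, with log2 fold changes of 0.20 ± 0.55 (SE) and -0.37 ± 0.49 (SE) (edgeR adjusted p = 0.867 and 0.717). The sign of the Col4a2 difference from control turned with the library left out. Markers of endothelial cells, which are known to make both chains, summed to 23.2 and 54.8 CPM in control, 122 to 295 CPM in nonpermissive and 57.4 to 159.7 CPM in permissive libraries, and their part in these levels was not tested. Both genes start 21 bases apart in opposite directions on mouse chromosome 8 (GRCm38.p6, positions 11312826 for Col4a1 and 11312805 for Col4a2), and their annotated spans overlap by 85 bases, in which reads cannot be assigned without strand. Col4a3 and Col4a4 likewise have overlapping spans, by 114 bases.

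**Figure D3:**
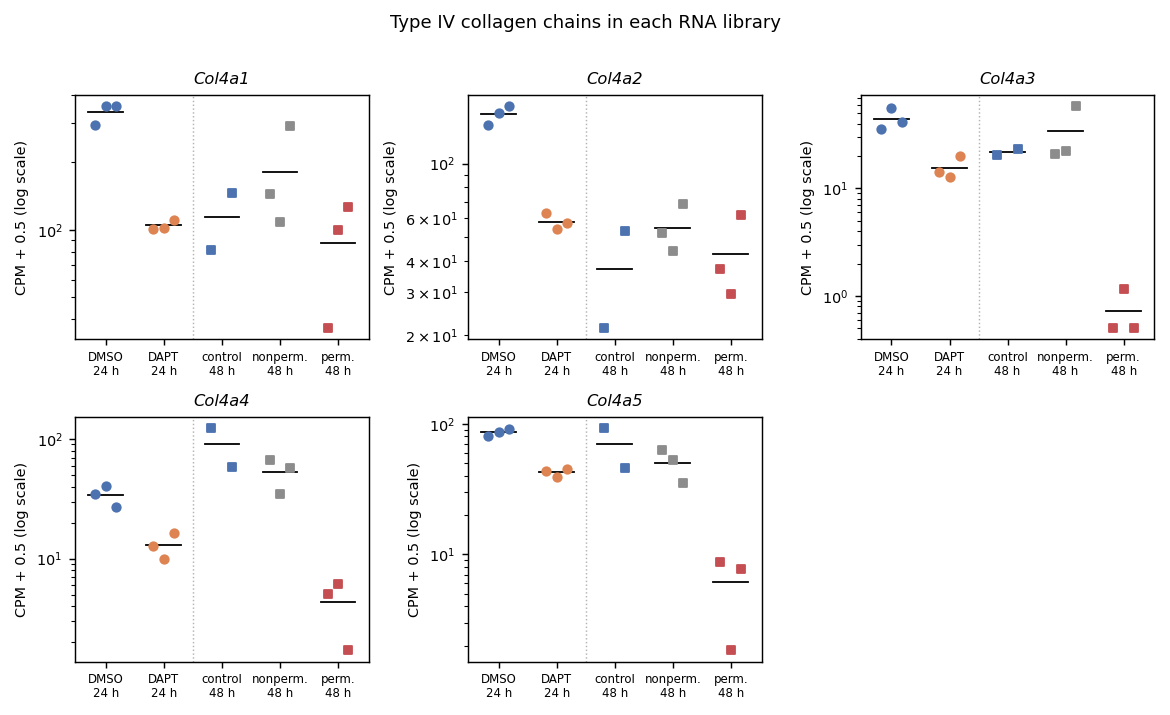
CPM + 0.5 on a log scale for 5 type IV chains, with a point for each library and a bar at the group mean; circles are 24 h and squares 48 h libraries. All 5 chains are lower in DAPT than in DMSO at 24 h, and at 48 h permissive libraries lie below the rest for Col4a3, Col4a4 and Col4a5 but overlap the other groups for Col4a1 and Col4a2.

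Col27a1 and Col18a1 did not pass at 24 h and were lower in permissive cells in both comparisons. Col27a1 was at 204 and 195 CPM in control, 306, 269.5 and 297 CPM in nonpermissive and 1.86, 10.7 and 27.9 CPM in permissive libraries, with log2 fold changes of -3.92 ± 0.72 (SE) and -4.46 ± 0.71 (SE) (edgeR adjusted p = 0.00284 and 0.00110). Col18a1 was at 243 and 331 CPM, 319, 187 and 363 CPM and 47.9, 69.3 and 79.3 CPM, with log2 fold changes of -2.13 ± 0.44 (SE) and -2.15 ± 0.41 (SE) (edgeR adjusted p = 0.00542 and 0.00343). No permissive library reached any other 48 h library for either gene. Without permissive 3 the Col27a1 value was -5.03 against control and -5.58 against nonpermissive cells.

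Col13a1, Col22a1 and Col12a1 were each called in 1 of the 2 comparisons, and the difference between the comparisons was not tested. Col13a1 was at 6.36 and 2.28 CPM in control, 12.8, 14.3 and 7.68 CPM in nonpermissive and 0.206, 0.669 and 0.809 CPM in permissive libraries. It was lower in permissive than in nonpermissive cells (log2 fold change -4.37 ± 0.95 (SE), edgeR adjusted p = 0.00759), and against control it missed the threshold (log2 fold change -2.97 ± 0.97 (SE), edgeR adjusted p = 0.0605), where DESeq2 called it (adjusted p = 0.0417). Col22a1 was at 7.29 and 12.3 CPM in control and 2.23, 0.571 and 0.320 CPM in nonpermissive libraries and had no counts in the permissive libraries. Against a floor of 3 counts per permissive library it was at least 10.3-fold lower than in control (edgeR adjusted p = 0.00723), while against nonpermissive cells it missed the threshold (edgeR adjusted p = 0.0765).

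Col12a1, a fibril-associated collagen of connective tissue, was at 9.54 and 16.5 CPM in control, 4.19, 0.571 and 1.28 CPM in nonpermissive and 1.03, 0 and 0 CPM in permissive libraries. Its difference from control (log2 fold change -4.85 ± 1.28 (SE), edgeR adjusted p = 0.0216) was not called without control 1, control 2 or permissive 2, with an adjusted p up to 0.121, and its value without permissive 1 was -8.41, where the permissive libraries left have no counts. Against nonpermissive cells it missed the threshold (edgeR adjusted p = 0.269). Col5a1 was at 23.6 and 86.7 CPM, 24.3, 17.7 and 61.4 CPM and 2.48, 4.02 and 13.3 CPM, with log2 fold changes of -3.09 ± 0.81 (SE) and -2.42 ± 0.75 (SE) (edgeR adjusted p = 0.0209 and 0.0485). Its value against control ran from -4.09 without permissive 3 to -1.94 without control 2, and against nonpermissive cells from -3.42 without permissive 3 to -1.71 without nonpermissive 3. That call ended without control 2 (adjusted p = 0.254) or permissive 2, and that against nonpermissive cells ended in 5 fits that left out a library. Col7a1 was at 10.3 and 15.4 CPM, 9.21, 10.3 and 12.5 CPM and 11.1, 30.8 and 18.2 CPM and passed no test (log2 fold change against control 0.64 ± 0.65 (SE), edgeR adjusted p = 0.600).

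**Figure D4:**
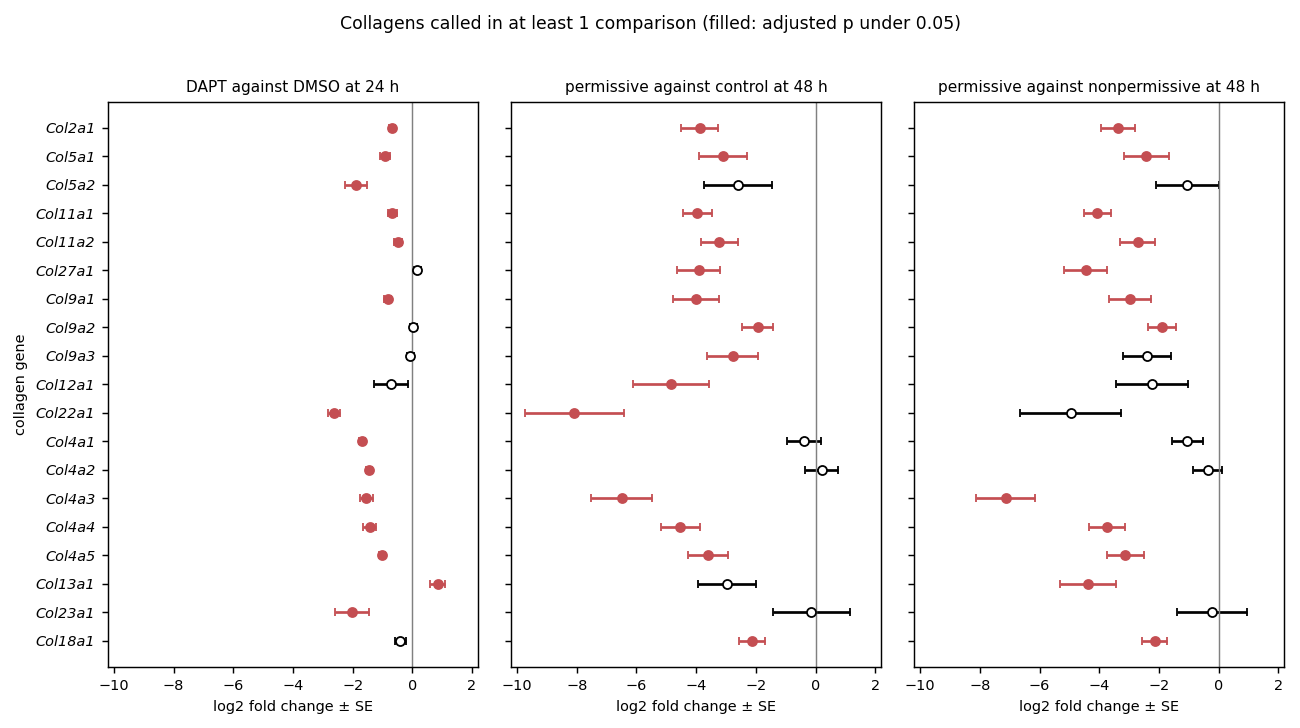
Log2 fold change with its SE for the 19 collagens called in at least 1 comparison, in DAPT against DMSO at 24 h, permissive against control and permissive against nonpermissive cells at 48 h. Filled points passed an adjusted p of 0.05; Col4a1 and Col4a2 are filled only at 24 h, and Col13a1 lies above 0 at 24 h and below 0 at 48 h.

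Among the interstitial collagens, control library 2 was far above the rest. Col1a2, a chain of type I collagen, was at 44.1 and 1393 CPM in control, 63.1, 23.98 and 170.2 CPM in nonpermissive and 15.3, 10.7 and 169 CPM in permissive libraries. Col3a1, the chain of type III collagen, was at 18.1 and 296 CPM, 24.01, 33.7 and 44.2 CPM and 4.95, 8.70 and 89.4 CPM. Control 2 held the highest value of each, and permissive 3 was above control 1. Col1a1, the other chain of type I collagen, named after its values were seen, was far lower. It was at 2.62 and 12.8 CPM, 0.838, 0 and 2.24 CPM and 1.86, 0.335 and 1.21 CPM, and was under the low-count filter at 48 h. Col16a1, a fibril-associated collagen, was at 3.18 and 103 CPM, 8.94, 11.99 and 37.1 CPM and 0.619, 22.1 and 20.6 CPM. Col5a2 was at 3.93 and 62.5 CPM, 5.86, 17.7 and 10.9 CPM and 1.65, 0.669 and 14.6 CPM. Col6a3, a type VI chain named after its values were seen, was at 5.05 and 122 CPM, 20.9, 3.997 and 38.7 CPM and 0.413, 0.335 and 30.3 CPM. In all, 13 of the 32 tested members, among them the cartilage chain Col9a3, were over 5 times higher in control 2 than in control 1. The reverse held for 0 members, while 10 lay within 2 times of each other. The share of all genes over this cut was not counted, so the count is not a trait shown to be particular to collagens.

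With all libraries and no block, none of Col1a2, Col3a1, Col16a1, Col5a2 and Col6a3 was called against control in permissive cells. The log2 fold changes were -3.47 ± 1.25 (SE) for Col1a2, -2.20 ± 1.07 (SE) for Col3a1, -1.89 ± 1.19 (SE) for Col16a1, -2.59 ± 1.15 (SE) for Col5a2 and -2.65 ± 1.44 (SE) for Col6a3 (edgeR adjusted p = 0.0876, 0.214, 0.360, 0.168 and 0.274). Without control 2 the 5 values, in the same order, were 0.470, 0.827, 2.08, 0.398 and 0.918, above 0 and without a call. With the replicate number as a block, Col1a2, Col3a1 and Col6a3 were called lower (edgeR adjusted p = 0.0168, 0.0413 and 0.0452). Without permissive 3 the values were -5.78 for Col1a2, -4.53 for Col3a1, -4.73 for Col5a2 and -7.25 for Col6a3, and these 4 were called lower (edgeR adjusted p = 0.00959, 0.00947, 0.0200 and 0.00742). Col1a2 was also called without control 1 (-4.43, edgeR adjusted p = 0.0255), and all 5 were called in the fit without the low-count filter.

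Markers of mesenchyme, the connective tissue cells around the cochlear duct, were also high in control 2. Of 14 mesenchyme markers, 10 had their highest 48 h value there. The transcription factor genes Tbx18 and Pou3f4 were at 3.37 and 95.01 and at 6.92 and 121 CPM in control 1 and control 2, Twist1 was at 0 and 22.8 CPM, and the matrix gene Fbln1 at 2.06 and 89.9 CPM. The list summed to 596 and 1250.5 CPM in the control libraries, 1343 to 3378 CPM in nonpermissive and 214 to 458 CPM in permissive libraries. The proteoglycan genes Lum and Dcn made up most of the nonpermissive sums. Without that pair the other 12 summed to 174 and 674 CPM in control, 80.5 to 162 CPM in nonpermissive and 123 to 219 CPM in permissive libraries. Control 2 had counts for all 14 markers, whereas Twist1, Twist2 and Thy1 were at 0 in control 1. The part of such cells in the interstitial collagen values was not tested.

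**Figure D5:**
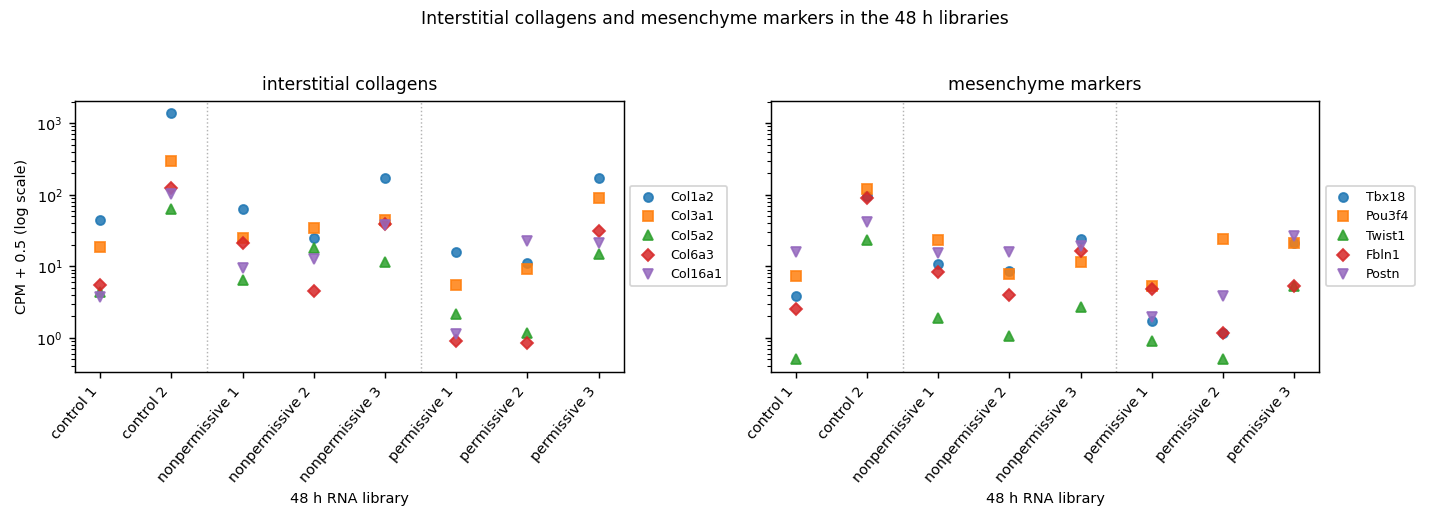
CPM + 0.5 on a log scale in each 48 h library for 5 interstitial collagens (left) and 5 mesenchyme markers (right). The genes shown are among those highest in control 2 at 48 h, which were 18 of 32 tested collagens and 10 of 14 mesenchyme markers. The 18 include the cartilage chains Col2a1, Col9a1, Col9a3 and Col11a2. The share of all genes highest in control 2 was not counted. The markers Emilin2, Lum, Dcn and Prrx1, not shown, were highest in other libraries. Col1a2 is at 1393 CPM in control 2 and 44.1 CPM in control 1.

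Nonpermissive cells, which had DAPT but did not carry the Atoh1 reporter, were compared with control cells. No collagen was called among the 32 tested (edgeR, 0 higher and 0 lower), in a comparison where 0.194% of all tested genes were called, 0.0671% higher and 0.127% lower. Libraries did not overlap for 2 members that were higher and 2 that were lower, beside 10.1% and 10.4% of all tested genes. At an unadjusted p under 0.05 there were 3 of the 32 members, beside 7.35% of all tested genes. DESeq2 called 0 members, and 77 genes higher and 77 lower among all genes. The median log2 fold change of the members was -0.49, with a range from -3.64 to 1.40. Col2a1 had a log2 fold change of -0.51 ± 0.59 (SE), which was 0.244 without control 2. For Col1a2 the log2 fold change was -3.06 ± 1.23 (SE), and it was 0.901 without control 2. Col22a1 libraries did not overlap (log2 fold change -3.12 ± 1.16 (SE), edgeR adjusted p = 0.539). The missing calls do not show that the groups are alike.

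Whether the 48 h difference of permissive cells from control exceeded the 24 h effect of DAPT was tested in a fit of all 14 libraries. The contrast set the change of permissive against control cells minus the change of DAPT against DMSO cells. It was called for 12 members, among 854 of 15159 genes, and for 0 members, among 14 of 15159 genes, when nonpermissive cells took the place of permissive cells. All 12 were more negative at 48 h. The values included -3.35 ± 0.46 (SE) for Col11a1, -4.17 ± 0.77 (SE) for Col27a1 and -5.18 ± 1.00 (SE) for Col4a3 (log2 units, with 0.000583, 0.00423 and 0.00556 as edgeR's adjusted p), the 3 that were kept in each of the 14 fits leaving out a library. Without control 2 the count was 7, without DMSO 3 it was 7, and without DMSO 1 it was 6. For Col4a1 and Col4a2 the difference was 1.24 ± 0.63 (SE) and 1.60 ± 0.53 (SE) (edgeR adjusted p = 0.321 and 0.0966), so the unequal calls at 24 h and 48 h were not shown to differ. Reporter, kit and time change together in this contrast.

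Genes that make, process and bind collagens were followed in 9 lists of 101 genes. At 24 h, 39 of 80 tested partners fell and 3 rose, beside 14.2% and 11.5% of all tested genes, and the median log2 fold change was -0.54. In permissive against control cells 31 of 79 were lower and 0 higher (median -1.88), beside 7.28% and 5.72% of all tested genes. In permissive against nonpermissive cells 24 were lower and 1 higher (median -1.02), beside 6.35% and 6.78%. In nonpermissive against control cells edgeR called 0 of 79, with 12 at an unadjusted p under 0.05, beside 7.35% of all tested genes.

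Genes that fold and modify collagen chains in the endoplasmic reticulum fell in 10 of 18 cases at 24 h. Colgalt2, which adds galactose to hydroxylysine, averaged 473 ± 13.1 CPM in DMSO and 175 ± 12.5 CPM in DAPT libraries (SD, n = 3 each), a log2 fold change of -1.43 ± 0.09 (SE) with an edgeR adjusted p of 9.91e-06. Plod2, a lysyl hydroxylase, fell by 2.55 times and Serpinh1, the collagen chaperone Hsp47, by 1.94 times (edgeR adjusted p = 0.000344 and 0.000418). In permissive cells 9 of 17 tested genes of this list were below control and 4 below nonpermissive cells. Colgalt2 was at 16.1 ± 8.55 CPM in permissive (n = 3), 451 ± 81.8 CPM in control (n = 2) and 283 ± 94.1 CPM in nonpermissive libraries (n = 3; mean ± SD). Fkbp14 and the prolyl hydroxylase P4ha3 were lower against both groups, by 11.3 and 39.6 times against control. Without control 2 the list had 5 calls against control in place of 9, and with the replicate number as a block it had 7 against nonpermissive cells in place of 4. Of 12 secretion genes 2 fell at 24 h, Sec24d, a coat protein of export vesicles, and Kdelr3, and Sec24d was lower in permissive cells by 9.11 times against control.

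Of the 12 tested genes for processing and crosslinking, 7 fell and 1 rose at 24 h. Adamts2, which removes the amino-terminal propeptide of fibrillar procollagens, averaged 231 ± 33.6 CPM in DMSO and 77.1 ± 10.3 CPM in DAPT libraries (edgeR adjusted p = 6.85e-05), and Bmp1, which removes the carboxy-terminal one, fell by 2.005 times. Adamts2 was lower in permissive cells by 15.5 times against control and 13.9 times against nonpermissive cells. Bmp1 was lower than control as well, but not without control 2 (edgeR adjusted p = 0.0119 and 0.158). The crosslinking enzyme gene Lox was lower by 13.4 and 22.4 times. Among type IV network partners 4 of 7 fell at 24 h, among them the laminin chains Lamb2, Lamc1 and Lama5, which fell by 2.03, 1.96 and 1.42 times. In permissive cells Lamb2 alone of the 7 was called, 4.28 times lower than control and 4.59 times lower than nonpermissive cells. The call against control ended without control 2 (edgeR adjusted p = 0.0887), and with the replicate number as a block 3 of the 7 were called against nonpermissive cells.

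Tectorial membrane glycoproteins, which embed the type II, IX and XI fibrils, were lower wherever they were called. Tecta and Otog also stand in the supporting cell list. At 24 h 3 of 5 tested genes fell, with Tecta, the gene of alpha-tectorin, at 3488 ± 457 CPM in DMSO and 2074 ± 163 CPM in DAPT libraries (edgeR adjusted p = 0.00244). The calls of Otog and Otogl, which encode otogelin and otogelin-like protein, ended in 4 and 1 of the 6 fits that left out a library. All 5 were lower in permissive cells against both groups. Tecta was at 169 ± 62.3 CPM in permissive and 6717 ± 2592 CPM in control libraries, and Tectb at 1536 ± 541 and 12752 ± 3973 CPM. Sox9, Sox5 and Sox6, transcription factors that activate type II and XI collagen genes in cartilage, all fell at 24 h, by 2.40, 1.36 and 2.04 times, although 4 of the 6 fits that left out a library gave no call for Sox5. All 3 were lower in permissive cells than in control, with Sox9 6.47 times lower (edgeR adjusted p = 0.00155), and without control 1 the Sox6 call ended (adjusted p = 0.0903). Against nonpermissive cells 2 of the 3, Sox5 and Sox9, were called lower, and with the replicate number as a block 3 were called. Sox9 also stands in the supporting cell list.

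Among receptors 3 of 6 tested genes fell at 24 h: Lair1, an inhibitory immune receptor, by 9.38 times, the discoidin receptor Ddr1 by 1.60 times and the integrin chain Itgb1 by 1.495 times. Adgrg1, a receptor that binds type III collagen, was the 1 partner above nonpermissive cells in permissive cells, at 44.1 ± 10.7 against 7.30 ± 6.13 CPM (edgeR adjusted p = 0.0219), a call that ended without nonpermissive 3 or permissive 1. Of the degradation genes and their inhibitors 4 of 7 fell at 24 h, with the protease inhibitor Timp3 3.25 times lower and the collagen-degrading protease gene Ctsk at 4.89 ± 1.13 CPM in DMSO and 0.207 ± 0.283 CPM in DAPT libraries, where it had 8 counts in all, a mean below the floor of 3 counts per library (edgeR adjusted p = 0.00124). In the list of proteoglycans and glycoproteins Matn1 and Lum rose at 24 h, by 8.61 and 1.98 times, while Sparc, a collagen-binding glycoprotein, fell by 1.91 times. Lum and Dcn, proteoglycans of collagen fibrils, were 25.6 and 8.55 times lower in permissive than in nonpermissive cells, and both genes also stand in the mesenchyme marker list.

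Promoter windows of 250 bases before to 50 after the annotated start (RefSeq, GRCm38.p6, the mm10 build of the peak lists) were found for 35 of the 44 collagens, in 38 windows. The 9 without an entry were Col12a1, Col14a1, Col1a1, Col22a1, Col26a1, Col2a1, Col4a3, Col5a2 and Col9a3. The 250 bases before 4 starts are shown because the 3 genes are members lower in permissive cells whose promoters differ in the deposited peaks; capitals mark the GC box, GGGCGG or its reverse complement CCGCCC.
Col11a1, chr3:114030290-114030539, plus strand: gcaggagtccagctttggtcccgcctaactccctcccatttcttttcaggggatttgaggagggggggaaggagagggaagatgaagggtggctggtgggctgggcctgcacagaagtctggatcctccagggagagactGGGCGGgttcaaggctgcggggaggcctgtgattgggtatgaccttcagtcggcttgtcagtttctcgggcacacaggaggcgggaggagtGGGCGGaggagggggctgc
Col9a1, upstream start, chr1:24177360-24177609, plus strand: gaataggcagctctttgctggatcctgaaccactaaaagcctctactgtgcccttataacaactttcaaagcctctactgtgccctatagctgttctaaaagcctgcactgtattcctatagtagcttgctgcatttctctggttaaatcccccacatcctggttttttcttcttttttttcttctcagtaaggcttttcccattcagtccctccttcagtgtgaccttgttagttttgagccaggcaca
Col9a1, downstream start, chr1:24194953-24195202, plus strand: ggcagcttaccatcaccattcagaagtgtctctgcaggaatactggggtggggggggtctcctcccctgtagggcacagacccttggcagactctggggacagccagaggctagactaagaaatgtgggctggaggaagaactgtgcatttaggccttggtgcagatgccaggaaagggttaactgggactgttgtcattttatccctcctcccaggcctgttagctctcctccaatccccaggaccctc
Col9a2, chr4:121039316-121039565, plus strand: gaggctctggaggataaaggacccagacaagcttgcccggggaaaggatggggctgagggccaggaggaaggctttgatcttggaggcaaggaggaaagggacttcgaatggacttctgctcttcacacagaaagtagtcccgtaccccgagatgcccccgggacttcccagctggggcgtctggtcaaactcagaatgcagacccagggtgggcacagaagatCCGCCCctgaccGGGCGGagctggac
The GC box stood on either strand in 21 of the 35 collagens and in 45.8% of 17491 genes with such a window. Other letters searched on both strands of these 250 bases, each counted whether or not it overlaps another, were TATAAA (14.3% of collagens and 13.7% of genes), CCAAT (37.1% and 39.5%), CAGCTG (17.1% and 13.8%), TGGGAA (34.3% and 23.5%) and ACAAT (5.71% and 28.5%). These matches describe the letters only. Both Col9a1 windows lack the GC box, and the Col11a1 and Col9a2 windows hold 2 each.

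An ATAC peak overlapped the window of 15 of 35 collagens in both control libraries, 16 in both nonpermissive libraries and 15 in both permissive libraries. These shares were 42.9%, 45.7% and 42.9%, beside 56.6%, 57.2% and 53.3% of all 17491 genes with a window. Single libraries ranged from 15 to 27 collagens, beside 54.0% to 63.8% of all genes. The peaks were called per library, and permissive 2 had 209727 listed peaks against 98343 in permissive 1. With a q of 1e-05 or smaller required, the counts in both libraries of a group were 7, 6 and 1 (20.0%, 17.1% and 2.86% of the 35), beside 47.7%, 49.01% and 40.1% of all genes. Libraries 1 and 2 then held 17 and 7 collagens in control, 8 and 15 in nonpermissive and 1 and 20 in permissive cells. All genes stood at 40.2% in permissive 1 and 59.4% in permissive 2, so the count of 1 rests on permissive 1. In a window of 1000 bases on each side of the start the counts in both libraries were 20, 21 and 21 of the 35, beside 61.8%, 62.5% and 59.3% of all genes. H3K27ac peaks were rarer, at 2 to 8 of 35 collagens per library beside 28.0% to 44.6% of all genes. In both libraries of a group they were listed at 1, 3 and 2 collagens, and in the wider window at 4, 5 and 4, beside 23.1%, 31.7% and 28.1% and 33.4%, 39.3% and 38.97% of all genes.

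At Col11a1 an ATAC peak was listed in all 6 libraries, with the authors' fold enrichment from 4.86 in permissive 1 to 12.5 in permissive 2. H3K27ac peaks there were listed in control 2 (3.60), nonpermissive 1 (11.5) and nonpermissive 2 (5.22) and in neither permissive library. Col9a1 had no peak of either kind at its upstream start, and in the wider window an ATAC peak there in 1 control library alone. At the downstream start ATAC peaks were listed in control 1, both nonpermissive libraries and permissive 2, and H3K27ac peaks in control 2, both nonpermissive libraries and permissive 2. Col9a2 had ATAC peaks in both control and both permissive libraries and H3K27ac peaks in 5 of 6 libraries, with fold enrichments of 5.29 and 5.58 in the permissive libraries. In the wider window Col9a2 had both kinds of peak in both libraries of all 3 groups. The downstream Col9a1 start had ATAC peaks in all of them there, and H3K27ac peaks in all but 1 permissive library. At Col11a1 the wider window held H3K27ac peaks in both control and both nonpermissive libraries and in neither permissive library. Col4a1 and Col4a2, whose windows overlap, had ATAC peaks in all 6 libraries. In its 300-base window Col13a1 had ATAC peaks in the 2 permissive libraries, at 2.56 and 3.40, and no H3K27ac peak. Neither ATAC peak passed the stricter q, and in the wider window ATAC peaks were listed in both libraries of all 3 groups and H3K27ac peaks in 1 control and 1 nonpermissive library. Both nonpermissive H3K27ac lists carry the same peak name prefix, so their labelling as replicates rests on the sample labels. These differences between lists were not tested.

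The remaining members were low or passed no test. Of the 44 genes, 7 passed the low-count filter at neither time: Col10a1, Col17a1, Col19a1, Col24a1, Col28a1, Col6a4 and Col6a5, all at or below 2.23 CPM in every library. Of the other 37, 19 were called in at least 1 comparison, and 4 more were named for their mean TPM: Col1a2, Col3a1, Col7a1 and Col16a1. The last 14 were not called in any comparison with all libraries, the low-count filter and no block. Some were not tested at each time: Col14a1, Col1a1, Col4a6, Col25a1 and Col6a6 were under the filter at 48 h and Col15a1 and Col8a1 at 24 h. Of the 14, Col6a3 was called lower in permissive than in nonpermissive cells without permissive 3 (edgeR adjusted p = 0.0204) as well as against control in the fits above. Col5a3 was called lower at 24 h without DAPT 1 and without the filter, and Col14a1 was called lower than control in permissive cells without control 1 and without the filter. Among them Col6a3 reached 122 CPM, Col15a1 49.3, Col26a1 59.6, Col5a3 19.4, Col6a1 29.1, Col14a1 18.5, Col1a1 12.8 and Col4a6 15.8 CPM in their highest library. Col6a2, Col6a6, Col8a1, Col8a2, Col20a1 and Col25a1 reached 2.02 to 12.2 CPM. Of the 13 that fell at 24 h, 9 were also lower in permissive cells against control. The 4 that were not were Col4a1, Col4a2, Col5a2 and Col23a1.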

How the data were processed

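RNA libraries were deposited as RSEM tables with expected counts and TPM per gene, which the authors made with STAR and RSEM on mm10, per the submitters' processing notes; no versions are given in the sources used here. Peak lists carry the fold enrichment (ratio) and −log10 p and q of the deposited MACS2 calls, as each peak's own score, per the file headers and notes. Expected counts were rounded and tested in edgeR 4.0.16 (R 4.3.3) with filterByExpr, TMM scaling and the quasi-likelihood test, separately at 24 h (6 libraries) and 48 h (8 libraries), with Benjamini-Hochberg adjustment over all genes tested. An SE is the size of the log2 fold change divided by the square root of F. CPM values are TMM-scaled within a time. The fits were tested on simulated data. Members, lists and rules were chosen with earlier results of these data known. Named genes are members called in at least 1 of 4 comparisons or among the 15 with the highest mean TPM, and up to 3 partners per list and comparison with the smallest adjusted p. Same-numbered libraries of permissive and nonpermissive cells had r = 0.576, 0.152 and 0.127 over 7484 genes, for numbers 1, 2 and 3. Differently numbered ones ran from -0.354 to 0.187, so a pairing by number is not shown for numbers 2 and 3. In permissive and control cells the same-numbered values were 0.512 and 0.198, for numbers 1 and 2. Differently numbered ones ran from -0.512 to 0.377 there. Deviations were taken from the group mean, so the 2 control libraries mirror each other and their values are not independent. At 24 h same-numbered libraries did not deviate together. Alternatives were DESeq2 1.42.0, other scaling, no filter, the block, and leaving out each library.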

Additional observations from a re-analysis of the deposited data

Results flagged for a closer look

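The change of permissive against control cells at 48 h minus the change of DAPT against DMSO cells at 24 h, tested as an interaction in edgeR over 14 libraries, passed an adjusted p of 0.05 for 12 collagens. On the log2 scale it was -3.35 for Col11a1, -2.81 for Col11a2, -3.26 for Col2a1, -3.26 for Col9a1 and -2.04 for Col9a2. It was -5.18 for Col4a3, -3.16 for Col4a4 and -2.64 for Col4a5. It was -4.17 for Col27a1, -1.79 for Col18a1, -3.99 for Col13a1 and -6.84 for Col22a1, whose permissive libraries hold no counts, so that its fitted value depends on the prior count. Without control 2, 6 of the 12 lost the call: Col11a2 (edgeR adjusted p = 0.134), Col18a1 (0.119), Col22a1 (0.0579), Col2a1 (0.0550), Col9a1 (0.234) and Col9a2 (0.156). Time, reporter and library kit cannot be told apart in this contrast.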

How the results depend on the processing

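Counts of called collagens stayed within 1.5 times of those reported under DESeq2, other scaling, no filter, the replicate block and fits of the compared groups, except that 2 members (Col1a2 and Col3a1) were called lower in nonpermissive than in control cells without the filter, where 0 were called otherwise. Leaving out each library gave 11 to 14 members at 24 h, 10 to 18 in permissive against control, 10 to 14 in permissive against nonpermissive and 0 in nonpermissive against control cells. Of 40 calls, 30 were kept in each such fit. The interaction count, whose leave-one-out fits were chosen after seeing the data like the list counts without control 2 or with the block, ran from 6 to 16, and the ratio of summed TPM of nonpermissive over control cells from 0.512 to 1.01. Values that changed sign when a library was left out ran, on the log2 scale, as follows. At 24 h Col9a2 ran from -0.0852 to 0.125 and Col9a3 from -0.17 to 0.0312. In nonpermissive against control cells Col1a2 ran from -4.03 to 0.90 and Col2a1 from -1.03 to 0.24. In permissive against control cells Col16a1 ran from -2.85 to 2.08, Col1a2 from -5.78 to 0.47, Col3a1 from -4.53 to 0.83, Col4a1 from -0.74 to 0.0362, Col4a2 from -0.32 to 0.94, Col5a2 from -4.73 to 0.40 and Col6a3 from -7.25 to 0.92. With the replicate number as a block Col4a2 was at -0.0285 there. At 24 h same-numbered libraries did not deviate together (r from -0.0745 to 0.00793), so the libraries share only a number, and the block gave 12 calls in place of 14, without Col11a2 (edgeR adjusted p = 0.0769) and Col23a1 (0.0509). At 48 h the block changed no call of a member beyond those given with the results and moved the count in permissive against control cells to 17. With -log10 q of at least 5 required, collagens with promoter ATAC peaks in both libraries were 7 in control, 6 in nonpermissive and 1 in permissive cells of 35. All genes stood at 47.7%, 49.01% and 40.1%. Permissive 1 alone held 1 and permissive 2 alone 20 of the 35, beside 40.2% and 59.4% of all genes. Collagens with H3K27ac peaks in both libraries were 0, 0 and 0, beside 6.41%, 14.3% and 6.23% of all genes. An ATAC peak in 1 library gave 17 to 23 collagens in nonpermissive and 15 to 27 in permissive cells, beside 58.9% to 61.9% and 54.0% to 63.8% of all genes. Depth limits what low collagens can show at 48 h, and 2 control libraries leave wide errors.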
